A study of Mus musculus with 8 samples.

Results

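The genes described here encode the insulin-like growth factor (IGF) binding proteins, the receptors for IGFs and insulin, and the receptor docking protein IRS1. They were taken as a family by symbol and matched to the count table by Ensembl ID, a rule that uses no measured value. Of 10 genes listed (Igfbp2, Igfbp3, Igfbp4, Igfbp5, Igfbp6, Igfbp7, Igf1r, Igf2r, Insr and Irs1), 8 were among the 16341 genes counted, and 7 passed the filter on low counts and were tested among 11717 genes. Igfbp5 was counted and not tested. Igfbp2 and Igfbp3 were not among the genes counted and are not analysed here.

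RNA-Seq was performed on 8 libraries of 4T1 cells, a murine mammary carcinoma line, after separation by SCA1, a surface protein encoded by Ly6a. The Sca1+ group had 4 libraries and the Sca1- group had 4, numbered 1 to 4 in each. Cells of both groups came from the same parental line, for which the labels name no introduced allele or treatment, and were stained with an anti-Sca1-PE antibody and sorted on magnetic columns within the CD45- gate. The labels name the parental line as the source, whereas their protocol mentions 4T1 tumor, and they do not say whether replicates were separate sorts or cultures. The p-values therefore measure the spread between these libraries, which may be technical.

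IGF1, IGF2 and insulin signal by binding receptor tyrosine kinases, the IGF1 receptor and the insulin receptor, which recruit IRS proteins and activate PI3K, AKT and mTOR. IGF-binding proteins are secreted carriers that hold IGFs outside the cell, extend their lifetime and usually keep them from the receptor until a protease cleaves the carrier. The IGF2 receptor has no kinase and removes IGF2 from the surroundings by taking it to lysosomes. In the mammary gland, IGF signaling supports ductal growth and epithelial survival, and carriers such as IGFBP5 rise as the gland involutes.

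The stretches of DNA just before the start sites of the 3 binding-protein genes with tested transcripts are shown because these genes were all higher in Sca1+ cells but by very different amounts. Each is the 250 bases before the RefSeq start on GRCm38.p6, read 5′ to 3′ on the strand of the gene. Capitals mark a GC box (GGGCGG, or CCGCCC on the other strand) or a TATA box (TATAAA, or TTTATA on the other strand). Igfbp4 lies at chr11:99040994-99041243 (plus strand), Igfbp6 at chr15:102143936-102144185 (plus strand) and Igfbp7 at chr5:77408046-77408295 (minus strand).
Igfbp4: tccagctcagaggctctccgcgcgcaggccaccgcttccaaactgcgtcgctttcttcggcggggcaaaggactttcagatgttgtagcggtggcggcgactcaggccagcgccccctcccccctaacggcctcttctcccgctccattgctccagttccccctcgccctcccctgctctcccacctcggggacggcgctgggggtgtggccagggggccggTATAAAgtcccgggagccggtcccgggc
Igfbp6: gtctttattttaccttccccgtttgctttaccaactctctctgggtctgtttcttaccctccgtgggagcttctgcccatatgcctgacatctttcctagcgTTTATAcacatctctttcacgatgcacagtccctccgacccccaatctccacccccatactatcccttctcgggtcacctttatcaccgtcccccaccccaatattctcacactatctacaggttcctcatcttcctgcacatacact
Igfbp7: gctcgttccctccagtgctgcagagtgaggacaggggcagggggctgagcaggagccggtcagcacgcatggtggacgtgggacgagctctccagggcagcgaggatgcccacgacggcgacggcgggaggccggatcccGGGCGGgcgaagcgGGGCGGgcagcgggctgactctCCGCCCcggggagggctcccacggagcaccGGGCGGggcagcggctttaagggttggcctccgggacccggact

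These 3 windows differed in make-up. The Igfbp4 window had a GC content of 69.2%, 22 CpG dinucleotides and a TATA box starting 28 bases before the start. The Igfbp6 window had a GC content of 49.6% and 7 CpG dinucleotides, with TATA letters only on the opposite strand, 148 bases before the RefSeq start. This window ends at 102144185, whereas the position given for the Igfbp6 gene below begins at 102144362. The bases between were not read. The Igfbp7 window had a GC content of 74% and 26 CpG dinucleotides, with 4 GC boxes between 110 and 44 bases before the start and no TATA box. Across 32851 windows of the same length, the median GC content was 52.4% and the median number of CpG dinucleotides was 6. A GC box was found in 32.7% of all windows and a TATA box in 12.4%. For the listed genes, 10 windows of 9 genes were read, of which 5 held a GC box. In the same 10 windows, STAT letters (TTCNNNGAA, 7.02% of all windows) and forkhead letters (TGTTTAC, 3.17%) were not found, AP-1 letters (TGANTCA, 6.75%) were found in 1, the second Igfbp2 window, and antioxidant response letters (TGACNNNGC, 10.2%) in 1, that of Irs1. Both strands were searched, and these matches describe letters only.

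Total counts ran from 13561804 to 16968215 per library. Ly6a checked the sort and had 145 to 196 counts in the Sca1+ libraries against 0 to 4 in the Sca1- libraries, although reads of the similar Ly6 genes could be shared. Of the 8 epithelial markers examined, the keratins Krt8, Krt18 and Krt7 had means of 11093 to 19845 normalized counts in either group, and Epcam had 3128 ± 101 against 3222 ± 35.2 (SD, n = 4). Of 7 epithelial markers tested, 2 were higher (Krt8 and Krt18) and 3 were lower, with the largest difference at Cdh1, which encodes E-cadherin (3264 against 5301 normalized counts, -0.69 ± 0.04). The basal keratin Krt5 had 3 counts over all 8 libraries.

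All 7 tested genes of the family were higher in Sca1+ cells and 0 were lower at an adjusted p under 0.05 (edgeR). DESeq2 and limma-voom also called 7 higher and 0 lower, and 0 had an unadjusted p under 0.05 in the lower direction with any of these tools. Over all genes tested, 31.3% were called higher and 30.2% lower, so that 61.5% were called in either direction. The median log2 fold change of the 7 genes was 0.21, beside 0.00738 over all genes tested. The median absolute log2 fold change over all genes tested was 0.242, so the typical size of the family differences was not large for this comparison. In 6 of the 7 genes every Sca1+ library lay above every Sca1- library, which held for 26.8% of all genes tested. The differences were of unequal size. Igfbp6 was 7.09-fold higher, Igfbp4 was 1.67-fold higher, and the other 5 genes were 1.13- to 1.20-fold higher. The log2 fold changes of these 5 stood above those of 67.2% (Igf1r) to 73.8% (Irs1) of all genes tested. Because these were bulk samples, more RNA per cell and more cells carrying the transcript cannot be told apart.

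**Figure D1:**
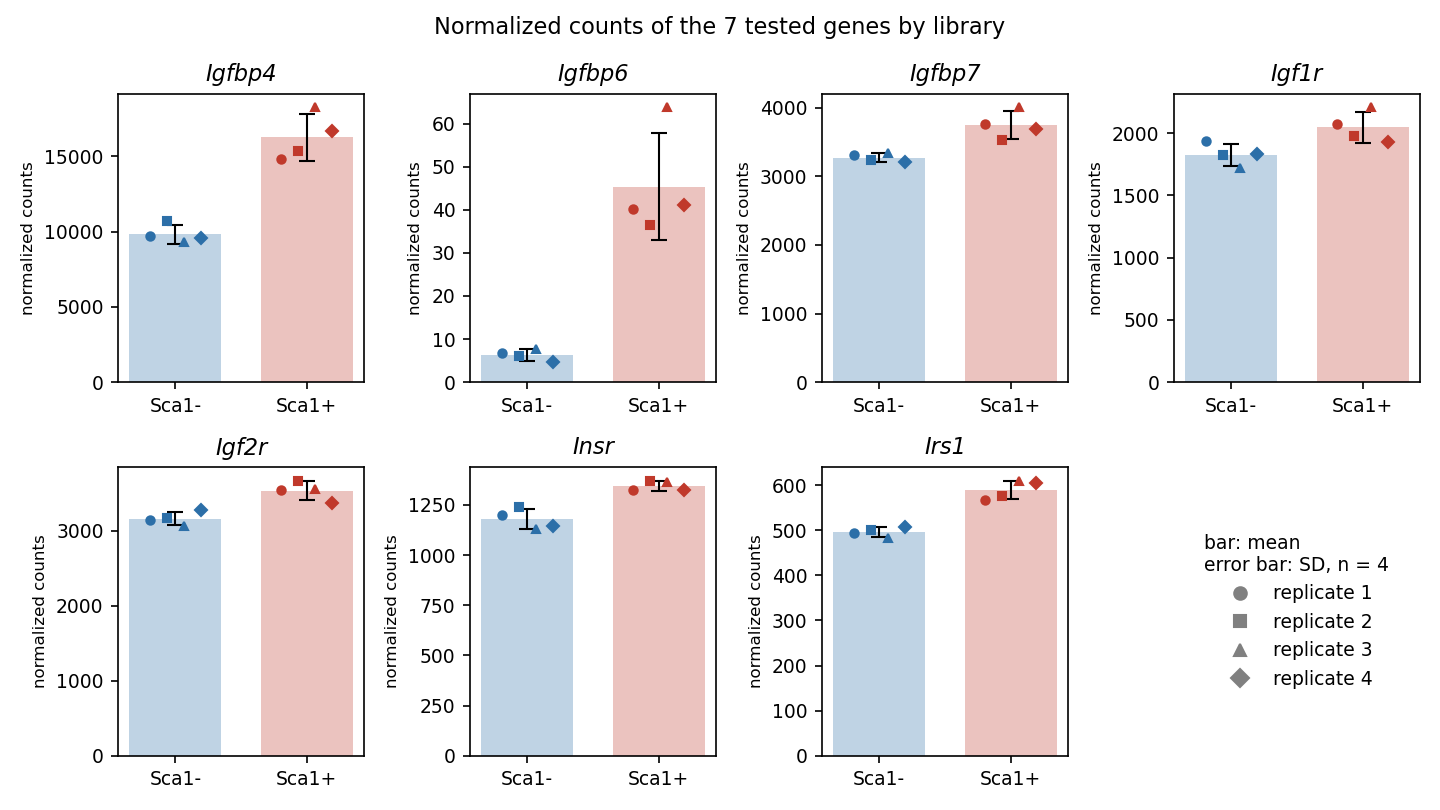
Normalized counts (vertical axes, each from 0) of 7 genes in 4 Sca1- and 4 Sca1+ libraries, with points for libraries, bars for means and error bars for SD. The groups are apart for 6 genes, and for Igf1r the lowest Sca1+ library (1924) lies under the highest Sca1- library (1934).

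Igfbp4 was the most abundant of these transcripts by normalized count. It encodes a carrier that mostly inhibits IGF action and is cleaved by the protease PAPP-A. Igfbp4 (ENSMUSG00000017493; GRCm38 chromosome 11, 99041244 to 99054392, plus strand) had normalized counts of 14784, 15325, 18253 and 16669 in Sca1+ replicates 1 to 4, against 9679, 10698, 9281 and 9579 in Sca1- replicates 1 to 4. Every Sca1+ library lay above every Sca1- library, and Sca1+ replicate 3 was the highest of all. The means were 16258 ± 1548 and 9809 ± 616 (SD, n = 4), and the log2 fold change was 0.74 ± 0.06 (edgeR adjusted p = 9.94e-09), where ± gives the standard error for this and all later fold changes. This value stood above 91.3% of all genes tested, and it ran from 0.62 to 0.78 over the alternative fits.

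Igfbp6 showed the steepest difference at a low level. It encodes a carrier that prefers IGF2 over IGF1. Igfbp6 (ENSMUSG00000023046; chromosome 15, 102144362 to 102149511, plus strand) had 44, 37, 64 and 47 counts in Sca1+ replicates 1 to 4 and 7, 6, 7 and 4 counts in Sca1- replicates 1 to 4. After normalization these were 40.2, 36.5, 63.8 and 41.1 against 6.69, 6.16, 7.79 and 4.57. The groups were well apart, and Sca1+ replicate 3 again stood above the others. The log2 fold change was 2.83 ± 0.28 (edgeR adjusted p = 1.37e-07), higher than the values of 99.6% of all genes tested. With only 24 counts over the 4 Sca1- libraries, its size is imprecise, and without Sca1+ replicate 3 it was 2.63. The study placed Igfbp6 in its list of SCA1-positive genes using these same libraries, so that list is not independent evidence of the direction.

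Igfbp7 was second among the carriers by normalized count and differed little. Its product binds IGFs weakly and is found in the matrix around vessels and epithelia. Igfbp7 (ENSMUSG00000036256; chromosome 5, 77349240 to 77408041, minus strand) had normalized counts of 3756, 3528, 4005 and 3691 in Sca1+ replicates 1 to 4 and 3311, 3233, 3336 and 3210 in Sca1- replicates 1 to 4. The groups did not overlap, although the lowest Sca1+ library lay close to the highest Sca1- library. The log2 fold change was 0.21 ± 0.05 (edgeR adjusted p = 0.000761). With offsets corrected for GC content the value was -0.018 (adjusted p of 0.716, edgeR) and the call was lost. The Igfbp7 transcripts had a GC content of 59%, and the median log2 fold change of the 713 tested genes within 1 percentage point of that was 0.23. Its exons share 85 bases with those of Polr2b on the opposite strand, which encodes a subunit of RNA polymerase II and was lower (-0.45 ± 0.06, edgeR adjusted p = 2.42e-06). Whether strand was used in counting is not given, and without it reads in those bases cannot be assigned to either gene.

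Igfbp5 was near absent. A single count was seen in Sca1+ replicate 1 and 0 in the other 7 libraries, and with at most 3 counts per library taken as the floor, no difference was detectable at this depth.

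The level of the binding proteins per kilobase (kb) of exon was compared within each library, since counts of genes of unequal length cannot be compared directly. The summed level of Igfbp4, Igfbp5, Igfbp6 and Igfbp7 was 6491, 6422, 7503 and 6864 normalized counts per kb in Sca1+ replicates 1 to 4 and 4936, 5102, 4868 and 4828 in Sca1- replicates 1 to 4. Igfbp4 made up 53.9% ± 1.64 of this sum in Sca1+ cells and 45% ± 1.81 in Sca1- cells. Igfbp7 made up 45.5% ± 1.68 and 54.9% ± 1.8. The share of Igfbp6 was 0.593% ± 0.116 and 0.115% ± 0.0246 (SD, n = 4). None of these 3 shares overlapped between the groups, but as parts of the same sum they are not independent of each other.

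The order of the 2 leading carriers thus changed with the group when lengths were taken over all exons. In Sca1+ libraries Igfbp4 had 3348 to 4133 normalized counts per kb and Igfbp7 had 2918 to 3312. In Sca1- libraries Igfbp7 had 2655 to 2759 and Igfbp4 had 2102 to 2423. With the length of the longest coding transcript instead, Igfbp4 had 2423 to 2793 and Igfbp7 had 2675 to 2780 in Sca1- libraries, which overlap, so the order in that group depends on the length used. Among all genes with a length, Igfbp4 ranked 97 in Sca1+ and 233 in Sca1- cells by level per kb, and Igfbp7 ranked 126 and 172.

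The 3 receptor genes differed by small amounts in the same direction. Igf1r encodes the main signaling receptor for IGF1 and IGF2. Igf1r (ENSMUSG00000005533; chromosome 7, 67952827 to 68233668, plus strand) had normalized counts of 2073, 1980, 2207 and 1924 in Sca1+ replicates 1 to 4 and 1934, 1823, 1718 and 1835 in Sca1- replicates 1 to 4. It is the only one of the 7 genes with overlapping groups, since Sca1+ replicate 4 lay under Sca1- replicate 1. Its log2 fold change was 0.17 ± 0.05 (edgeR adjusted p = 0.0073), and the adjusted p reached 0.0386 without Sca1- replicate 3.

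Igf2r, the clearance receptor for IGF2 that also sorts lysosomal enzymes, had the highest level per kb of exon of the 3. Igf2r (ENSMUSG00000023830; chromosome 17, 12682406 to 12769664, minus strand) had normalized counts of 3543, 3664, 3556 and 3369 in Sca1+ replicates 1 to 4 and 3141, 3164, 3056 and 3268 in Sca1- replicates 1 to 4. The groups did not overlap, and the log2 fold change was 0.17 ± 0.04 (edgeR adjusted p = 0.00211). In mouse, Igf2r is imprinted, and Airn is a noncoding RNA from the opposite strand whose gene overlaps that of Igf2r. Airn had 23.8 ± 5.42 normalized counts in Sca1+ cells and 15.7 ± 2.88 in Sca1- cells (log2 fold change 0.62 ± 0.24, edgeR adjusted p = 0.032). The Airn call was lost with DESeq2 (adjusted p of 0.114) and without Sca1+ replicate 2, Sca1- replicate 1 or Sca1- replicate 2, where its log2 fold change was 0.46 to 0.58. The exons of the 2 genes share 0 bases. Where the genes overlap, however, reads from unspliced Igf2r RNA and from Airn cannot be told apart without strand.

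Insr encodes the insulin receptor, which can also pair with the IGF1 receptor in hybrids. Insr (ENSMUSG00000005534; chromosome 8, 3122061 to 3279617, minus strand) had normalized counts of 1324, 1368, 1366 and 1323 in Sca1+ replicates 1 to 4 and 1200, 1240, 1130 and 1145 in Sca1- replicates 1 to 4. The groups did not overlap, and the Sca1+ libraries were the tighter group. The log2 fold change was 0.20 ± 0.05 (edgeR adjusted p = 0.00119). With GC-corrected offsets it was 0.26.

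The ratios between the receptors overlapped between the groups. Per kb of exon, the level of Igf2r was 3.12 ± 0.179 times that of Igf1r in Sca1+ cells and 3.12 ± 0.132 times in Sca1- cells. The level of Igf1r was 1.24 ± 0.0681 times that of Insr in Sca1+ cells and 1.27 ± 0.0555 times in Sca1- cells (SD, n = 4). In either group the order per kb of exon was Igf2r, Igf1r and Insr, with ranges over the libraries that did not overlap.

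Irs1 encodes a docking protein that both receptors phosphorylate. Irs1 (ENSMUSG00000055980; chromosome 1, 82233101 to 82291416, minus strand) had normalized counts of 567, 577, 609 and 605 in Sca1+ replicates 1 to 4 and 494, 501, 483 and 507 in Sca1- replicates 1 to 4. All Sca1+ libraries were above all Sca1- libraries. The log2 fold change was 0.26 ± 0.06 (edgeR adjusted p = 0.000553). Over the alternative fits it ran from 0.24 to 0.30.

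**Figure D2:**
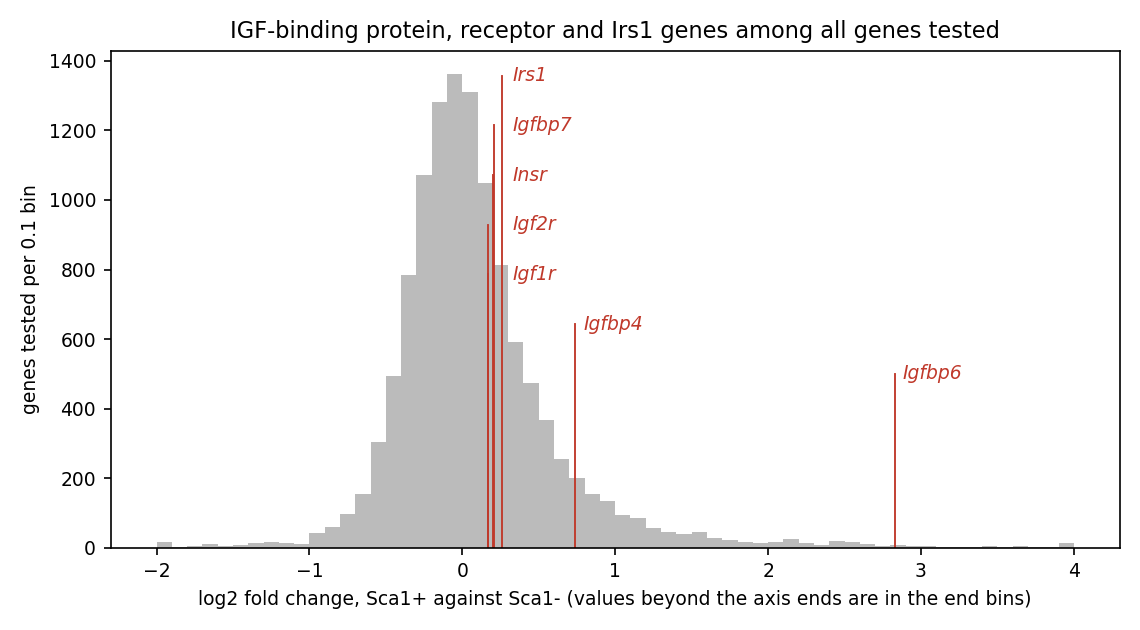
Histogram of log2 fold changes (horizontal axis) of 11717 genes tested, as genes per bin (vertical axis), with lines at 7 genes of the family whose heights have no meaning. Igfbp6 (2.83) and Igfbp4 (0.74) lie out on the right, and the other 5 lie between 0.17 and 0.26 on the right flank of the main peak.

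Irs2, the other docking protein of the family with transcripts above the filter, moved the opposite way. Irs2 had normalized counts of 626, 624, 741 and 640 in Sca1+ replicates 1 to 4 and 1028, 1000, 898 and 890 in Sca1- replicates 1 to 4. The groups did not overlap, and the log2 fold change was -0.53 ± 0.07 (edgeR adjusted p = 2.30e-06). Per kb, the ratio of Irs1 to Irs2 was therefore 0.622 ± 0.0372 in Sca1+ cells and 0.361 ± 0.0272 in Sca1- cells, with no overlap. Irs2 stayed the more abundant of the pair in every library. The sum of the pair per kb was 161 to 184 in Sca1+ libraries and 195 to 217 in Sca1- libraries.

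**Figure D3:**
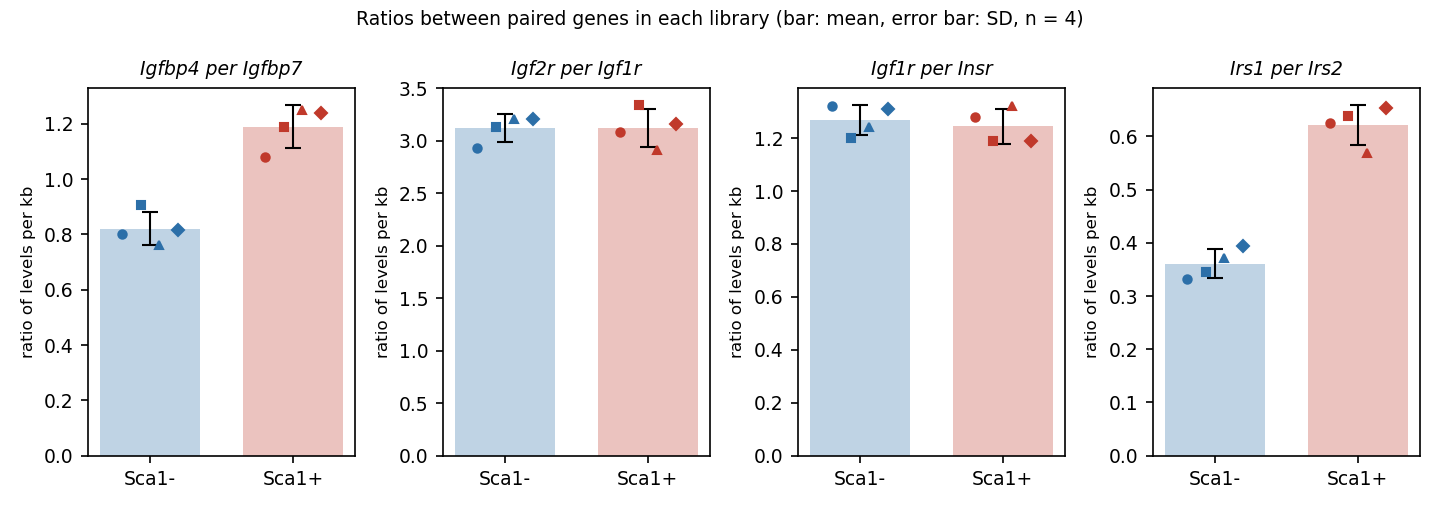
Ratios of the levels of paired genes per kb of exon (vertical axes, each from 0) in the 4 Sca1- and 4 Sca1+ libraries, with points for libraries, bars for means and error bars for SD. Igfbp4 per Igfbp7 (1.19 against 0.821) and Irs1 per Irs2 (0.622 against 0.361) are apart between the groups, whereas Igf2r per Igf1r and Igf1r per Insr overlap.

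The ligands were barely seen in these cells. Igf1 had 13 counts over the Sca1+ libraries and 10 over the Sca1- libraries, and Igf2 had 12 and 6. Neither passed the filter. Mean normalized counts were 3.06 ± 0.906 against 2.68 ± 0.811 for Igf1 (two-sided exact permutation p = 0.543) and 2.8 ± 1.3 against 1.6 ± 0.665 for Igf2 (p = 0.143, exact permutation), where the smallest p that 4 against 4 libraries allow is 0.0286. Ins1, Ins2 and Igfbp1 were not among the genes counted and are not analysed here. Of the other binding proteins listed, Kazald1 alone was tested and was higher (0.81 ± 0.26) at 19.7 against 11.4 normalized counts.

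The other genes of the pathway went both ways. Of 96 further genes listed by role, 90 were counted and 78 were tested, and 32 of these were higher, 20 were lower and 26 did not pass. Their median log2 fold change was 0.067. Over all genes tested, 31.3% were higher and 30.2% were lower, and the counts by role that follow are to be read against these shares.

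**Figure D4:**
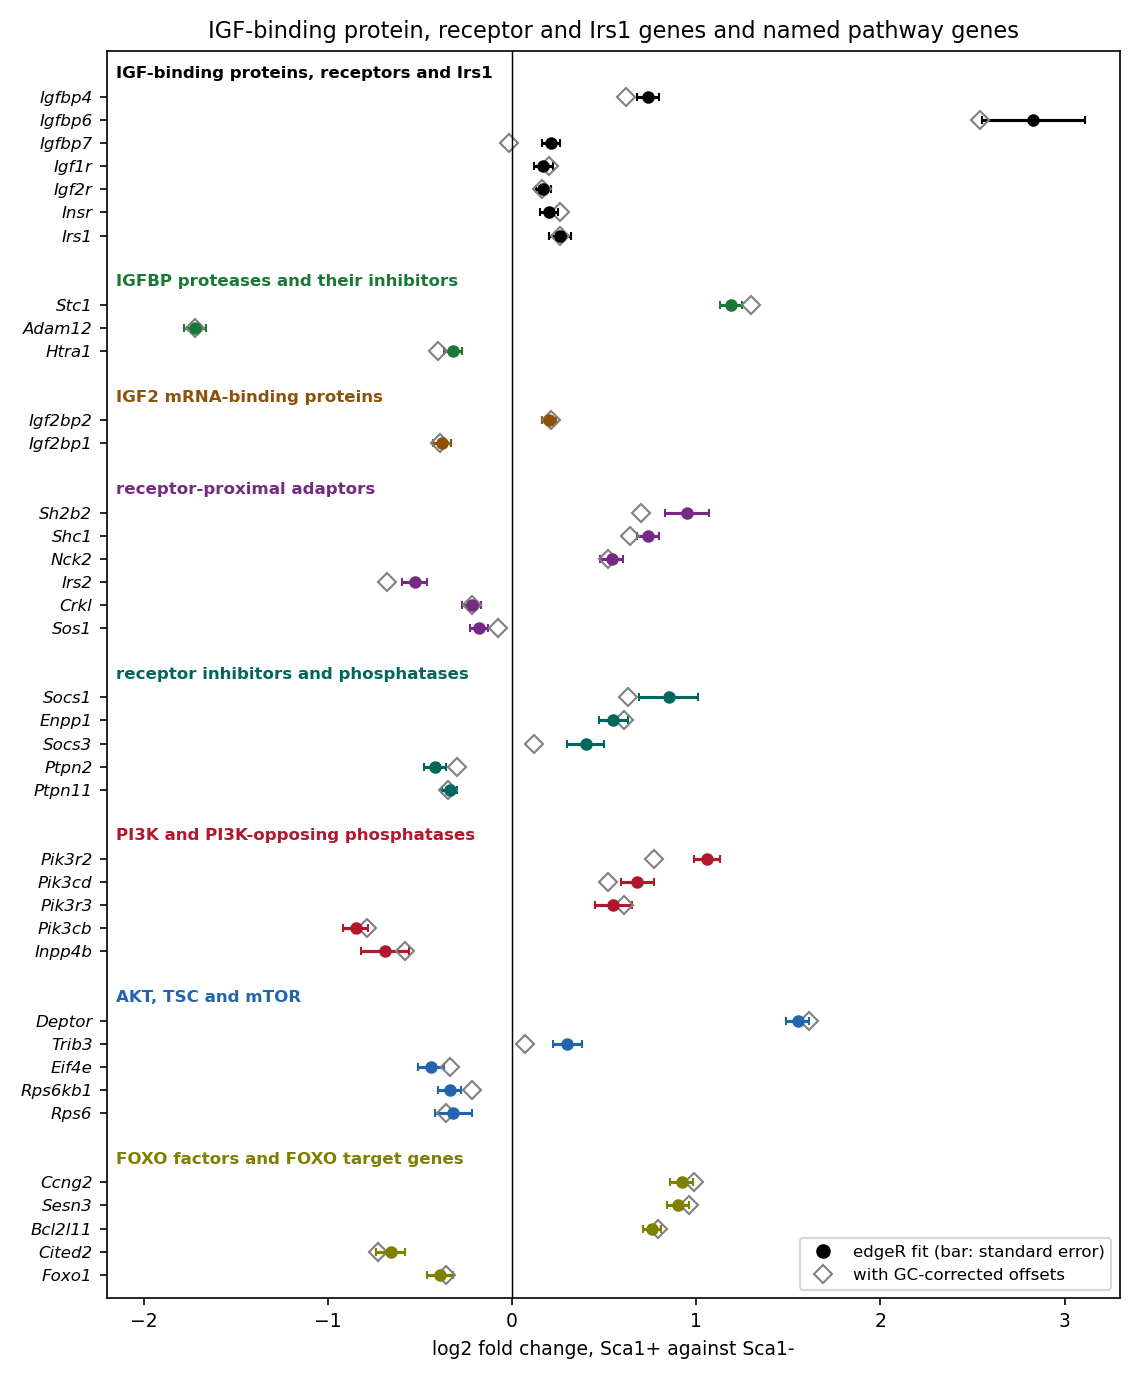
Log2 fold changes (horizontal axis, Sca1+ against Sca1-) of 7 family genes and of the named pathway genes grouped by role, with filled points and standard errors from edgeR and open diamonds with GC-corrected offsets. Each pathway role holds genes on either side of 0, and among the genes drawn only the diamond of Igfbp7 (-0.018) lies across 0 from its point.

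Among 7 genes for proteases of the binding proteins and their inhibitors, 6 were tested, 2 were higher and 2 were lower. Stc1 encodes stanniocalcin 1, which blocks PAPP-A, the protease of IGFBP4. It had normalized counts of 827 to 943 in Sca1+ libraries against 377 to 418 in Sca1- libraries, with a log2 fold change of 1.19 ± 0.06 and an adjusted p of 3.29e-11 (edgeR). Htra3, a secreted serine protease under the level set for naming, went from 2.42 ± 1.1 normalized counts in Sca1- cells to 40.6 ± 10.4 in Sca1+ cells (4.03 ± 0.36, edgeR adjusted p = 3.45e-08). Its 9 counts over the Sca1- libraries leave the size imprecise. The stanniocalcin gene Stc2 had 34.2 against 26.6 normalized counts and did not pass. The transcript of the protease itself, Pappa, was counted once in all over the 8 libraries. Adam12 encodes a metalloproteinase that cleaves IGFBP3 and IGFBP5. It had 271 ± 18.6 normalized counts in Sca1+ cells and 902 ± 44.8 in Sca1- cells (log2 fold change -1.72 ± 0.06, edgeR adjusted p = 4.12e-13). Htra1, related to Htra3, was also lower (-0.32 ± 0.05). Of the genes for RNA-binding proteins named after IGF2 mRNA, Igf2bp1 was lower (-0.38 ± 0.05) and Igf2bp2 was slightly higher (0.20 ± 0.04).

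Of 12 tested adaptors next to the receptors, 5 were higher and 5 were lower. The higher ones named by rule were Sh2b2 (0.95 ± 0.12), which binds the activated insulin receptor, Shc1 (0.74 ± 0.06), which links receptors to RAS, and Nck2 (0.54 ± 0.06). The lower ones besides Irs2 were Crkl (-0.22 ± 0.05) and Sos1 (-0.18 ± 0.05), a RAS exchange factor whose call was lost with GC-corrected offsets (-0.079). Of 10 tested receptor inhibitors and phosphatases, 6 were higher and 2 were lower. Socs1 (0.85 ± 0.16), Enpp1 (0.55 ± 0.08) and Socs3 (0.40 ± 0.10) encode proteins that dampen cytokine or insulin receptors and were higher, although Socs3 did not pass with GC-corrected offsets (0.12). The phosphatase genes Ptpn2 (-0.42 ± 0.06) and Ptpn11 (-0.34 ± 0.04) were lower.

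Of 12 tested genes of PI3K and the phosphatases that oppose it, 5 were higher and 4 were lower. Pik3r2, a regulatory subunit of PI3K, had normalized counts of 2093, 2242, 2764 and 2312 in Sca1+ replicates 1 to 4 and 1078, 1233, 1118 and 1114 in Sca1- replicates 1 to 4. It was 2.09-fold higher (1.06 ± 0.07, edgeR adjusted p = 7.73e-10). Over the alternative fits its log2 fold change ran from 0.77 to 1.11. The Pik3r2 transcripts had a GC content of 60.9%, and the median log2 fold change of the 326 tested genes within 1 percentage point of that was 0.29. The catalytic subunit genes moved apart, as Pik3cd was higher (0.68 ± 0.09) and Pik3cb was lower (-0.85 ± 0.07). Pik3ca, the most abundant of the 3 by count, had 1232 against 1147 normalized counts and did not pass. The regulatory gene Pik3r3 was higher (0.55 ± 0.10). The phosphatase gene Inpp4b was lower (-0.69 ± 0.13).

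Of 23 tested genes for AKT, TSC and mTOR components, 7 were higher, 4 were lower and 12 did not pass. Deptor, an inhibitor within the mTOR complexes, had the largest difference of these 23 genes. It had normalized counts of 2417, 2736, 2410 and 2640 in Sca1+ replicates 1 to 4 and 950, 854, 813 and 901 in Sca1- replicates 1 to 4, 2.92-fold higher (1.55 ± 0.06, edgeR adjusted p = 4.31e-13). Trib3 (0.30 ± 0.08) was higher, but did not pass with GC-corrected offsets (0.068). The translation genes Eif4e (-0.44 ± 0.07), Rps6kb1 (-0.34 ± 0.06) and Rps6 (-0.32 ± 0.10) were lower, and Rps6 is uncertain because processed copies of ribosomal protein genes can share its reads. Of 12 tested FOXO factors and FOXO target genes, 5 were higher and 2 were lower. The listed target genes Ccng2 (0.92 ± 0.06), Sesn3 (0.90 ± 0.06) and Bcl2l11 (0.76 ± 0.05) were higher. The listed target gene Cited2 (-0.66 ± 0.08) and the factor gene Foxo1 (-0.39 ± 0.07) were lower, and 5 of the 12 did not pass.

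Igfbp4, Igfbp6 and Igfbp7 are also abundant in fibroblasts and in the cells of vessel walls, so markers of such cells were examined next to them. Of 10 fibroblast markers, 7 were counted and 3 were tested, of which 2 were higher. Their summed level was 635 to 671 normalized counts in Sca1+ libraries and 395 to 468 in Sca1- libraries, most of it from Pdgfra (560 against 364). Col1a1 was higher (47.6 against 28.6 normalized counts, 0.75 ± 0.19). Dcn had 49 counts over the Sca1+ libraries and 4 over the Sca1- libraries, and Pdgfrb had 27 and 1, with no overlap between the groups for either in normalized counts. Postn, the other tested fibroblast marker, had 24.7 against 24.2 normalized counts and did not pass. Fap went the other way with 4 counts over the Sca1+ libraries and 11 over the Sca1- libraries, although its groups overlapped. Col1a2 reached at most 8 counts in any library, and Col3a1, Lum and Thy1 were not among the genes counted. Endothelial markers summed to 34.7 to 43.9 and 43.4 to 66.2, with 1 of 8 tested, Tie1, which was lower (-0.60 ± 0.19), while Pecam1 had 21 counts over the Sca1+ libraries and 4 over the Sca1- libraries, with no overlap in normalized counts. Pericyte and smooth muscle markers summed to 133 to 220 and 7.64 to 18.3, nearly all from Notch3 (161 against 9.68), while Acta2 had 11 counts over the Sca1+ libraries and 0 over the Sca1- libraries, Rgs5 had 12 and 0, and Myh11 had 11 and 7. Leukocyte markers summed to 404 to 471 and 229 to 267, with 4 of 12 tested and all 4 higher (Cd68, Csf1r, Cd74 and S100a8). Ptprc, which encodes CD45, was also higher at a very low level, with a mean of 2.32 against 0.535 and no overlap in normalized counts. Itgam had 10 counts over the Sca1+ libraries and 11 over the Sca1- libraries. Of 4 adipocyte markers, 3 were counted and none passed the filter, with sums of 4.99 to 8.88 and 2.05 to 9.55. The part of such cells in the values of Igfbp4, Igfbp6 and Igfbp7 was not tested.

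Igfbp6 lies on distal chromosome 15. Of 30 other tested genes within 1 Mb of it, 23 were higher in Sca1+ cells and 2 were lower, with a median log2 fold change of 0.35, where 31.3% of all genes tested were higher and 30.2% were lower. The nearest tested genes on either side, Spryd3 (0.46 ± 0.07) and Csad (0.85 ± 0.10), were both higher. Over the alternative fits, their values ran from 0.32 to 0.50 and from 0.70 to 0.91. The count within 1 Mb was not repeated with GC-corrected offsets.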

How the data were processed

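Total RNA of 4 Sca1+ and 4 Sca1- libraries was sequenced from Illumina TruSeq libraries. The submitters' processing notes name cutadapt 1.16, STAR 2.5.3a and GRCm38/mm10, and the counting tool, annotation and use of strand are not given in the sources used here. The authors deposited raw counts for 16341 genes, and a signal table of normalized counts for 15372 genes, which equalled those counts divided by DESeq2 size factors (largest relative difference 4.9e-15). No column of other samples was present. Normalized counts printed here are counts divided by these factors, and PCR reads are not independent molecules, so floors cover counting error only.

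Counts were tested with edgeR 4.0.16 in R 4.3.3 (filterByExpr, TMM, glmQLFit and glmQLFTest, two-sided, no covariate) over 11717 genes, with Benjamini-Hochberg adjustment and a threshold of 0.05. A standard error is the absolute log2 fold change divided by the square root of F. The fit was tested on simulated data with 200 of 11717 genes altered. There, 96% of 2-fold and 86% of 1.41-fold changes were recovered, with 13 false calls. Smaller changes were not simulated, nor was a share of changed genes as large as the 61.5% called here. Positions, exon lengths and GC content came from GENCODE M21 (GRCm38), in which 16200 genes matched, and promoters from RefSeq. Besides all genes of the family, the rule named up to 3 higher and 3 lower called genes per pathway list with a mean of at least 50 normalized counts. The 8 pathway and 6 marker lists were written from general knowledge. The family and these lists were chosen with earlier results of these data known. Single marker genes, Htra3, Kazald1, Stc2, Pappa, Pik3ca, Airn, Polr2b, Top2a, the genes near Igfbp6 and the tensin genes were named after their values were seen. Some genes that the rule named are not reported here.

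Alternatives were other scalings (DESeq2 size factors, upper quartile, library totals), DESeq2 1.42.0 or limma-voom (limma 3.58.1) as the test, no filter or a minimum of 10 counts per library, a block for the replicate number, an adjusted p under 0.01, GC-corrected offsets (loess, span 0.3) and leaving out each library. The length of the longest coding transcript was added after seeing the data.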

Additional observations from a re-analysis of the deposited data

Results flagged for a closer look

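In 118 tests of a group of 4 libraries, over 49 genes and 10 sums and ratios, 4 had 1 library far from the other 3, where chance gives 5.9. Of these, 3 fell on Sca1+ replicate 3. Igfbp6 had a normalized count of 63.8 there, above 36.5 to 41.1 in the other 3 Sca1+ libraries. Irs2 had 741, above 624 to 640. Cited2 had 2174, above 1675 to 1720. For the tensin gene Tns1, on the chromosome of Igfbp5, Sca1- replicate 2 had 144, above 121 to 125 in the other 3 Sca1- libraries.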

How the results depend on the processing

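The numbers of higher and lower genes, of the family, of the pathway lists and of all genes tested, stayed within 1.5 times under every alternative. Of 125 values of the 7 family genes under alternatives, 124 kept direction and call. The exception was Igfbp7 with GC-corrected offsets (-0.018), where the median log2 fold change of genes of like GC content was already 0.23 without the correction. A fit with a replicate block called 7 family genes higher, against 3605 higher and 3452 lower genes in all, and each of the 49 genes refitted kept its call, while Htra3, Kazald1, Stc2, Pik3ca, Top2a and the marker genes other than Ly6a were not followed singly. Same-numbered libraries deviated together hardly at all (correlations 0.0957, -0.15, -0.0339 and -0.00107). Whether they came from a shared sort cannot be decided this way, since a small shared effect could be hidden by noise between libraries. Scaling by library totals gave 4118 higher and 2984 lower genes, and by upper quartile 3965 and 3186. At least 10 counts in every library left Igfbp6 untested. Depth limits Igfbp5, Igf1 and Igf2. The cause of the change in the calls of Airn, Sos1, Socs3 and Trib3 was not tested.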

Other observations

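Genes for tensins lie on the same chromosomes as binding-protein genes, and were looked at after their values were seen. Tns4 (chromosome 11, 99065678 to 99089306), 11.3 kb from Igfbp4, had 14997 ± 429 normalized counts in Sca1+ cells and 9945 ± 406 in Sca1- cells (SD, n = 4), a log2 fold change of 0.61 ± 0.04 beside 0.74 for Igfbp4. Tns2 (chromosome 15, 102100413 to 102116401), 28.0 kb from Igfbp6, had 2736 ± 222 against 1893 ± 139 (0.54 ± 0.06). Tns1 (chromosome 1, 73910231 to 74124449), 1035.3 kb from the near-silent Igfbp5, had 550 ± 44.1 against 128 ± 10.4 (2.11 ± 0.08). Tns3 (chromosome 11, 8431652 to 8664535), 1217.7 kb from Igfbp3, went the other way with 7686 ± 110 against 9285 ± 260 (-0.26 ± 0.04). The groups did not overlap for any of the 4 tensin genes, as held for 26.8% of all genes tested in the higher and 27.9% in the lower direction, and each kept its direction and call under all 18 alternatives. Top2a, 17.1 kb from Igfbp4 on its other side, had a log2 fold change of -0.012.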
